A study of Mus musculus with 28 samples.

Results

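MAP kinase cascade genes were taken as all protein-coding genes of the mouse annotation (build mm9) whose symbol is Mapk, Map2k, Map3k or Map4k followed by a number, which gave 40 of 22238 protein-coding genes. They comprise 5 MAP4Ks (Map4k1 to Map4k5), 15 MAP3Ks (Map3k1 to Map3k15), 7 MAP2Ks (Map2k1 to Map2k7) and 13 MAPKs. A peak of histone H3 lysine 27 acetylation (H3K27ac, a mark of active promoters and enhancers) was assigned to a member if its summit lay within 100 kb of a start site of that gene and no start site of another protein-coding gene was nearer. By this rule 2639 of the 893719 peaks of the 15 deposited lists belonged to members. Peaks with the summit within 1000 bp of a start site were called promoter peaks (814) and the others distal (1825). The nearest start site does not show which gene a distal region acts on.

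In a MAP kinase cascade, a MAP4K or a small GTPase activates a MAP3K, which phosphorylates a MAP2K, which in turn phosphorylates both a threonine and a tyrosine of a MAPK. The ERK branch runs through Map2k1 and Map2k2 (MEK) to ERK kinases such as Mapk3, the p38 branch through Map2k3 and Map2k6, and the JNK branch through Map2k4 and Map2k7. TGF-β is known to signal to these branches beside its SMAD pathway, in part through Map3k7 (TAK1), and they take part in epithelial to mesenchymal transition (EMT).

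The lists came from NMuMG/E9 cells, a subclone of a mouse mammary gland epithelial line that undergoes EMT under TGF-β. One chromatin library was made for each of 3 replicates in 5 conditions. Cells were untreated (0h), or treated with 2 ng/ml TGF-β for 4 or 24 h in the presence of the solvent DMSO (4h and 24h, the solvent being given by the study's methods), or treated for the same times after 30 min with 25 µM UO126, a MEK inhibitor (ERKi 4h and ERKi 24h). The 0h cells received neither TGF-β nor UO126, so 4h or 24h against 0h compares TGF-β together with solvent and time in culture, which cannot be told apart here, since no cells were kept for 4 or 24 h without TGF-β. No condition held UO126 without TGF-β. All cells are of 1 subclone, and the labels do not say that replicates were separate cultures, so p-values measure the spread between these libraries.

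Each library held 50445 to 69180 peaks with a median pileup of 38 to 57 fragments at the summit. Read totals are not in the lists. Of the epithelial markers, Cdh1, Krt8 and Krt18 had a promoter peak in all 15 libraries and Cldn4 in 11, whereas Epcam and Cldn3 had none. None of 9 markers of blood, endothelial, fat, nerve, muscle and liver cells (Ptprc, Cd68, Cd3e, Pecam1, Cdh5, Adipoq, Snap25, Myod1 and Alb) had a promoter peak in any library.

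Peaks of the 15 lists that overlapped were merged to 89050 regions, of which 253 belonged to members (49 promoter and 204 distal regions). Distal regions of members lay in introns in 137 cases, 131 of them in the member itself, between genes in 66 and in a UTR in 1. A comparison of levels was made for the 26934 regions with a peak in all libraries, of which 90 belonged to members (45 promoter and 45 distal), and 62 member regions were found in 1 library only. Levels are given as scaled pileup, the number of fragments at the summit after division by a library factor. This pileup was recovered from the fold enrichment and the p-value of each peak, because the fold enrichment divides the pileup by a local background that can itself move with acetylation. Differences are in log2 units with their standard error (SE) and the adjusted p over all 26934 regions (limma, threshold 0.05).

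The sequences below are the 300 bases around the summit of 5 distal regions near Map2k6, Mapk6, Map4k3 and Map3k4 that passed the test below, and on which the account of 24h and of ERK inhibition turns. They were read from the mm9 genome. Capitals mark matches on either strand to AP-1 (TGANTCA), SMAD (CAGAC) or ETS (GGAAGT) motifs, and the only matches here are to SMAD.
Map2k6 region 40.9 kb downstream, chr11:110301166-110301465, plus strand: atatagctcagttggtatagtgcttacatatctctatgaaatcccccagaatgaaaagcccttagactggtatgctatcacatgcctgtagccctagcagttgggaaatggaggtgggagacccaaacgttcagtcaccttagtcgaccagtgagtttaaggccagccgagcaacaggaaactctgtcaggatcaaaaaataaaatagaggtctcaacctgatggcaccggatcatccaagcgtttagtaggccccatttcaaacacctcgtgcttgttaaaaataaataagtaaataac
Mapk6 region 13.1 kb upstream, chr9:75270761-75271060, plus strand: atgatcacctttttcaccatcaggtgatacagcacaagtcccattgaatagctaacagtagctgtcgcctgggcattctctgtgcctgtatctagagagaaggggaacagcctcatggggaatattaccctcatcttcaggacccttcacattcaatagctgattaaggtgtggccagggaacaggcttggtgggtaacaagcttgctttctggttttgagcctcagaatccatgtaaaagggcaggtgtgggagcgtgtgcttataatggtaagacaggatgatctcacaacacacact
Map4k3 region 68.3 kb upstream, chr17:81195631-81195930, plus strand: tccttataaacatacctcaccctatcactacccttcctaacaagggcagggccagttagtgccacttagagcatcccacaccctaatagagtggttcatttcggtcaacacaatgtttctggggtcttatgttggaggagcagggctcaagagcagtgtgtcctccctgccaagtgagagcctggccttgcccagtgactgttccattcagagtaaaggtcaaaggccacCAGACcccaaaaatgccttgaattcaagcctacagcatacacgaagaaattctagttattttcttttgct
Map4k3 region 17.9 kb downstream, chr17:81109389-81109688, plus strand: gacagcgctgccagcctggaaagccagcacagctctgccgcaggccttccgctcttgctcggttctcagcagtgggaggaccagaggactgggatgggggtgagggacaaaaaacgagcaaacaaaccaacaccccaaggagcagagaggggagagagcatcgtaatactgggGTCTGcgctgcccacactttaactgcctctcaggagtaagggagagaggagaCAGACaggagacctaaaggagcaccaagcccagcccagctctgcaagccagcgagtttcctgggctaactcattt
Map3k4 region 18.9 kb upstream, chr17:12530338-12530637, plus strand: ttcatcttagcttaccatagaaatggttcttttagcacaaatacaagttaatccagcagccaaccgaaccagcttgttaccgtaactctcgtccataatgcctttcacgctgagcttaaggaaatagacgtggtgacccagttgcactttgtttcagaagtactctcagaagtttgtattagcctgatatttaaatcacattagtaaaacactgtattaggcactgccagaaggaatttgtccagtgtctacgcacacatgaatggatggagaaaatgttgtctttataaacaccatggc

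These windows held 1 SMAD match at the Map4k3 region 68.3 kb upstream and 2 at the region 17.9 kb downstream, and none of the 3 motifs in the other windows. Some regions that passed the test but are not shown did hold AP-1 or ETS matches. Among them were AP-1 at the regions 9.4 kb upstream of Map3k2 and 9.5 kb upstream of Map3k1, and ETS at the Mapk6 region 30.0 kb downstream. No match says only that these letters are not in the window. Among the 45 distal member regions, 8 (17.8%) held an AP-1 match, 23 (51.1%) a SMAD match and 10 (22.2%) an ETS match in a window of 300 bases. Among all 13100 distal regions in the comparison the shares were 8.98%, 57.2% and 20.4%. At promoters, 0 of 45 member regions held an AP-1 match against 3.09% of 11596, 22 (48.9%) a SMAD match against 46.9%, and 5 (11.1%) an ETS match against 17.0%. These are letter matches, not sites of binding.

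Most cascade genes carried an acetylated promoter in every condition. Of the 40 members, 33 had a promoter peak in all 15 libraries, 1 (Map2k6) in 13 and 6 in none. The number of members with a promoter peak was 34 in each library of 0h, 4h and ERKi 24h and 33 or 34 at 24h and ERKi 4h. Over all protein-coding genes, 45.7% to 46.9% had a promoter peak in a library. By the percentile of the pileup among all peaks of its library, the highest promoter peak of a member had a median over libraries of at least 90 in 15 members, between 50 and 90 in 16 and below 50 in 3, a library without the peak counted as 0.

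Among MAP4Ks, which act upstream of MAP3Ks, all 5 had a promoter peak in every library. The Map4k3 promoter was at the 97.8th to 99.5th percentile and Map4k1, a kinase known from blood cells, at the 53.3rd to 81.7th. Among MAP3Ks, Map3k2 (MEKK2) had the highest median (96.4) and Map3k8 the lowest of those with a peak (53.7), and Map3k7 stood at 81.2. Among MAP2Ks, medians ran from 74.3 for Map2k5 to 96.3 for Map2k2, apart from Map2k6 at 23.0. Among MAPKs, Mapk14 (p38α) had the highest median with 97.0, whereas Mapk4 and Mapk15, atypical MAPKs, stood at 20.8 and 31.0.

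Mapk3, Map2k1 and Map2k2 of the ERK module, whose activity UO126 blocks at MEK, had high promoter acetylation with and without the inhibitor. The Mapk3 promoter (ERK1) lay between 77.8 and 91.5 on the percentile scale, Map2k1 between 88.6 and 96.2 and Map2k2 between 93.2 and 98.4. At the Mapk3 promoter (chr7:133903129-133904475, in an intron) scaled pileups were 126, 124 and 123 fragments at 0h, 105, 131 and 94.6 after 4h, 104, 127 and 103 after 24h, 127, 147 and 142 at ERKi 4h and 129, 139 and 123 at ERKi 24h. The libraries of each treated condition overlapped those it is compared with. ERKi and DMSO differed by 0.34 at 4h (SE 0.16, adjusted p = 0.835). None of the promoters of these 3 genes passed the test in any of the 4 comparisons, with adjusted p from 0.467 to 1.00 (limma), and differences were between -0.19 and 0.34.

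**Figure D1:**
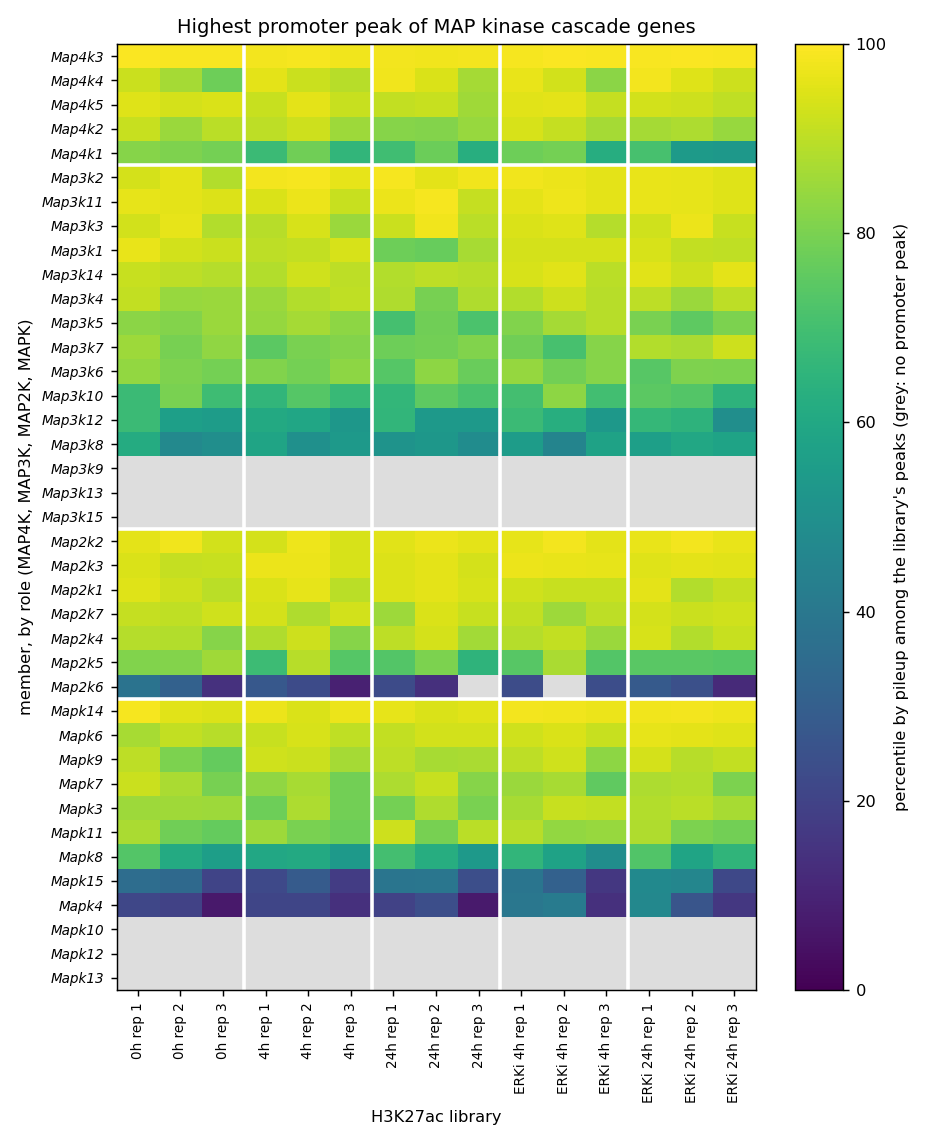
Percentile by pileup of the highest promoter peak of 39 of the 40 members (rows, ordered by role) in each of the 15 libraries (columns), with grey where a library has no promoter peak. In all, 32 rows are filled in every library, Map2k6 lacks a peak in 24h replicate 3 and ERKi 4h replicate 2, and 6 rows are grey throughout.

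The 6 members with no promoter peak were Map3k9, Map3k13 and Map3k15 among MAP3Ks and Mapk10, Mapk12 and Mapk13 among MAPKs. Mapk10 (JNK3) is known from nervous tissue and Mapk12 (p38γ) from muscle. Map3k15 and Mapk12 had no peak of any kind in any library. In the 1000 bases around the most upstream start site, the observed over expected CpG ratio had a median of 0.80 in the 34 members with a promoter peak (0.33 to 1.06), of 0.62 in the 6 without (0.23 to 0.93) and of 0.56 over all protein-coding genes. The 0.33 is that of Map3k4, taken at its plus-strand gene model and not at its minus-strand one. The next lowest with a promoter peak was 0.44 at Mapk15. The lowest ratios without a promoter peak were 0.23 at Map3k13 and 0.32 at Mapk10, but Map3k9 reached 0.93.

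Distal peaks of members numbered 105, 102 and 118 at 0h, 106, 111 and 139 after 4h, 114, 130 and 139 after 24h, 121, 122 and 143 at ERKi 4h and 126, 106 and 143 at ERKi 24h. All ERKi 4h libraries exceeded all at 0h, whereas the other conditions each overlapped 0h. As a share of all distal peaks of a library this was 0.325% to 0.334% at 0h, 0.327% to 0.350% at 4h, 0.320% to 0.341% at 24h, 0.349% to 0.351% at ERKi 4h and 0.301% to 0.315% at ERKi 24h. The ERKi 24h shares lay below those of every other library, although ERKi 24h did not have the fewest peaks. Most lay near few genes. Map4k3 had 17 to 28 distal peaks in a library, Map2k6 10 to 18, Map3k4 8 to 19 and Map3k1 10 to 19. Their means over the libraries were 22.4, 14.4, 14.1 and 14.1, the highest among members. No distal peak was found in any library for 12 members (Map2k1, Map2k7, Map3k6, Map3k8, Map3k10, Map3k11, Map3k12, Map3k15, Map4k2, Mapk7, Mapk11 and Mapk12).

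Few changes were found after 4h of TGF-β at these genes without the replicate number in the fit. Both regions called in that fit lay near MAP3Ks, which held 36 of the 90 member regions. Of the 90 member regions, 2 were higher at 4h than at 0h (2.22%, against 3.4% of all regions) and 0 lower (against 0.234%). By unadjusted p, 12 of the 90 were below 0.05, a count without a share of all regions to read it against. The median difference of member regions was 0.00 and that of all regions -0.04. With the replicate number in the fit, 11 were higher (against 11.1% of all regions) and 2 lower (against 4.35%), so the shares of members called were near the background in both fits. By role, the higher regions were 7 of MAP3Ks, 2 of MAP2Ks and 2 of MAPKs, and the 2 lower regions were of MAP4Ks.

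The region 9.4 kb upstream of Map3k2 (MEKK2, known as an activator of the Map2k5 and Mapk7 branch) lies between genes at chr18:32313110-32313730. It had 40.0, 39.0 and 50.4 fragments at 0h and 112, 83.4 and 98.3 at 4h, and all 3 libraries at 4h were above all at 0h. The level was 2.27-fold higher at 4h, a log2 difference of 1.18 (SE 0.23, adjusted p = 0.00813). Without 4h replicate 1 the adjusted p was 0.0508. At 24h it had 109, 78.7 and 129 fragments (log2 difference from 0h 1.28, SE 0.23, adjusted p = 0.00102). The calls at 4h and at 24h were both lost when neighbouring peaks within 1000 bp were merged, so they depend on where the acetylated stretch is split. With UO126 the region 9.4 kb upstream had 89.3, 68.0 and 103 at ERKi 4h and 67.6, 82.4 and 105 at ERKi 24h, values that overlapped those with DMSO. The region 9.7 kb downstream, in an intron, rose by 0.69 at 24h (SE 0.20, adjusted p = 0.0256), from 18.7 ± 4.7 to 29.7 ± 2.9 fragments (SD, n = 3). This call was lost without 0h replicate 1 or 2 or 24h replicate 1 or 3 (adjusted p 0.0515 to 0.113).

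Map3k4 (MEKK4, a MAP3K of the p38 and JNK branches) had changes in both directions. Its intronic region 34.2 kb downstream, at chr17:12459073-12460614, had 21.1, 22.4 and 24.1 fragments at 0h and 42.0, 41.7 and 37.7 at 4h. It was higher by 0.84 at 4h (SE 0.21, adjusted p = 0.0319), a call lost without any one of the 6 libraries compared (adjusted p 0.0560 to 0.143), and by 0.83 at 24h (SE 0.21, adjusted p = 0.00947). The distances are from the nearer of 2 start sites, since the annotation holds 2 gene models named Map3k4 on opposite strands. Distal peaks of Map3k4 numbered 8, 11 and 10 at 0h and 15, 17 and 17 at 4h, with no overlap. At 24h there were 11, 13 and 16.

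After 24h of TGF-β, H3K27ac rose at single regions near Map2k6, Mapk6, Map3k2 and Map3k4 and fell near Map4k3, Map3k1, Map3k5 and Map3k4. Of the 90 member regions 6 were higher (6.67%, against 10.8% of all regions) and 9 lower (10.0%, against 6.57%). With the replicate number in the fit, 14 were higher (against 18.4%) and 20 lower (against 16.3%), and none of the 15 calls was lost. By role, 5 of the 20 MAP4K regions were lower, all of them near the single gene Map4k3. Of the 36 MAP3K regions 3 were higher and 4 lower, and 1 of the 17 MAP2K and 2 of the 17 MAPK regions were higher. All but 1 of the 15 regions were distal. The median difference of member regions was -0.07 and that of all regions -0.03. Without 0h replicate 1 the number called was 9 in place of 15.

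**Figure D2:**
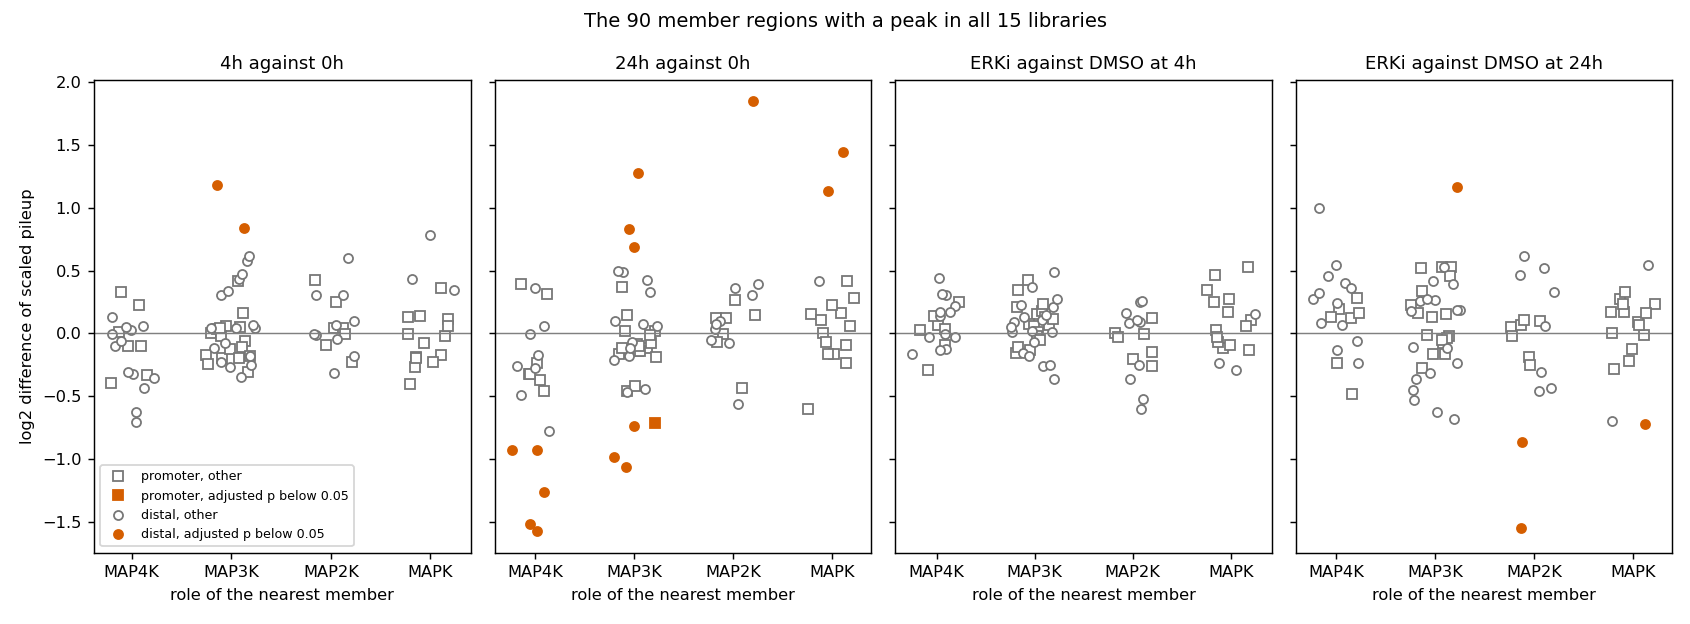
Log2 difference of scaled pileup (vertical axis) for the 90 member regions by role of the nearest gene in the 4 comparisons, with squares for promoter and circles for distal regions and filled symbols for an adjusted p below 0.05 without the replicate number. The filled symbols number 2 at 4h and 15 at 24h against 0h, and 0 at 4h and 4 at 24h for ERKi against DMSO.

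The region that rose most lies 40.9 kb downstream of the Map2k6 start site, in an intron, at chr11:110299864-110301625. Map2k6 (MKK6) is an activating kinase of p38. The region had 21.1, 22.4 and 24.1 fragments at 0h, 28.9, 26.2 and 28.5 at 4h and 80.8, 66.2 and 99.7 at 24h. All libraries at 24h stood above all others. The level was 3.60-fold higher at 24h than at 0h (log2 1.85, SE 0.17, adjusted p = 5.8e-06), and at 4h the difference was 0.31 (SE 0.17, adjusted p = 0.475). With UO126 it had 19.4, 23.5 and 22.3 fragments at ERKi 4h and 25.0, 28.3 and 30.2 at ERKi 24h. The ERKi 24h libraries were all above those of 0h and far below those of 24h with DMSO, and ERKi 24h fell by 1.55 below 24h with DMSO (SE 0.17, adjusted p = 0.000134). The local background recovered for this peak moved with it, between 4.45 and 4.65 fragments at 0h and between 10.9 and 19.1 at 24h. The deposited fold enrichment was 5.51, 3.54 and 4.11 at 0h and 5.46, 4.97 and 4.87 at 24h, and by that measure the adjusted p (limma) was 0.422. At ERKi 24h the fold enrichment was 5.53, 4.27 and 4.56, which overlapped 24h with DMSO (adjusted p = 0.719, limma).

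A second intronic region of Map2k6, 52.8 kb downstream (chr11:110312506-110313710), was lower with UO126 and not higher with TGF-β. It had 38.6, 48.4 and 59.2 fragments at 0h, 47.2, 51.3 and 45.0 after 4h, 46.0, 50.2 and 55.5 after 24h, 31.1, 32.1 and 31.4 at ERKi 4h and 28.6, 30.9 and 24.0 at ERKi 24h. Every library with UO126 was below every library without it. ERKi 24h fell by 0.86 below DMSO (SE 0.17, adjusted p = 0.0065). At 4h the difference was -0.60, with an adjusted p of 0.282 without and 0.0304 with the replicate number. Distal peaks of Map2k6 numbered 12, 12 and 12 at 0h, 15, 14 and 16 at 4h and 15, 16 and 18 at 24h, and neither treated condition overlapped 0h. With UO126 there were 14, 15 and 14 at 4h and 15, 10 and 18 at 24h. Its promoter peak stayed low at all times (condition means between 12.2 and 27.8 on the percentile scale, a library without the peak counted as 0).

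Mapk6 (ERK3), an atypical MAPK, gained acetylation both upstream of and within the gene. The region 13.1 kb upstream, between genes at chr9:75269331-75272339, had 42.2, 66.1 and 72.3 fragments at 0h, 72.6, 75.1 and 76.2 at 4h and 157, 167 and 156 at 24h. It was 2.73-fold higher at 24h than at 0h (log2 1.45, SE 0.19, adjusted p = 8.56e-05), without overlap. With UO126 it had 57.3, 55.6 and 71.0 at ERKi 4h and 93.3, 96.5 and 102 at ERKi 24h, the latter between the levels of 0h and of 24h. ERKi 24h fell by 0.72 below DMSO (SE 0.19, adjusted p = 0.0273). That call was lost without any one of the 6 libraries compared (adjusted p 0.0553 to 0.0838). The fold enrichment at this region went the other way, from 5.34, 5.44 and 6.51 at 0h to 4.25, 4.53 and 3.94 at 24h, while the recovered background was between 9.29 and 10.0 fragments at 0h and between 31.5 and 41.8 at 24h.

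The intronic Mapk6 region 30.0 kb downstream (chr9:75226870-75227635) had 40.0, 33.1 and 43.8 fragments at 0h, 67.3, 52.4 and 84.5 at 4h and 52.1, 103 and 115 at 24h. It was higher by 1.14 at 24h (SE 0.32, adjusted p = 0.0207), but the adjusted p was 0.0548 without 0h replicate 1, 0.0767 without 0h replicate 2, 0.0683 without 24h replicate 2 and 0.0905 without 24h replicate 3. At ERKi 24h it had 52.9, 37.3 and 73.6 fragments (difference from DMSO -0.69, adjusted p = 0.234 without and 0.0264 with the replicate number). Distal peaks of Mapk6 numbered 2, 3 and 4 at 0h, 6, 7 and 6 at 24h and 4, 3 and 5 at ERKi 24h. The libraries at 24h exceeded those of both other conditions.

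**Figure D3:**
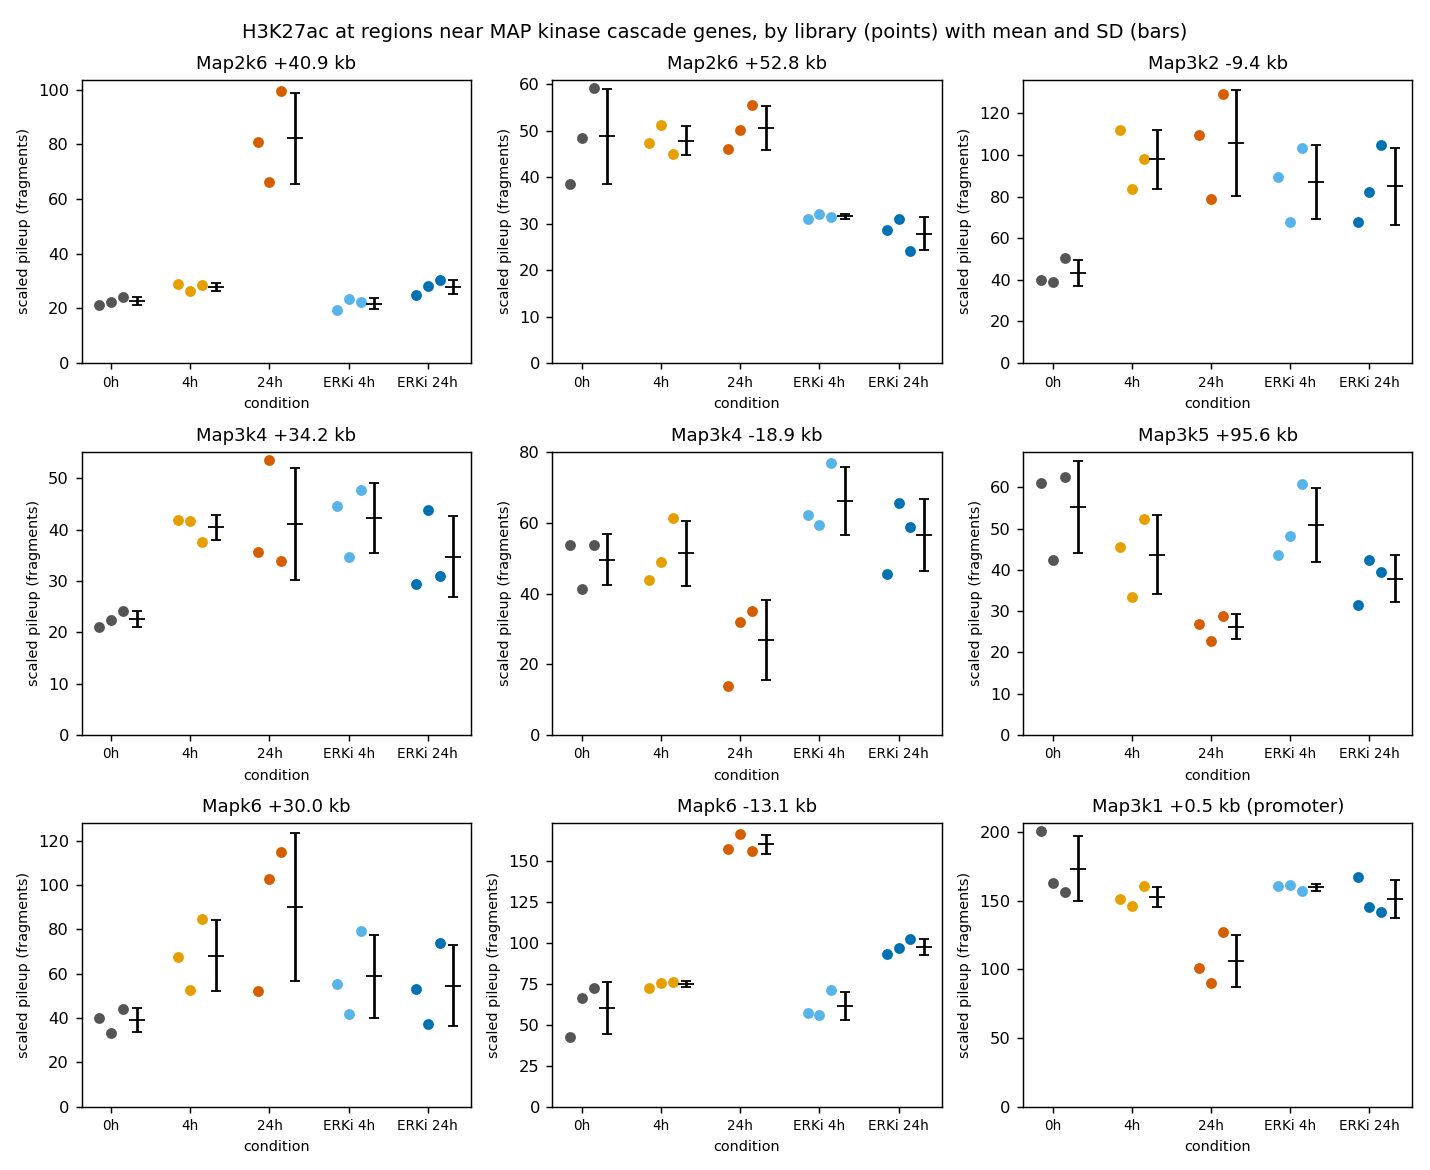
Scaled pileup in fragments (vertical axis) of 9 member regions (the named regions other than those of Map4k3, and the promoter that passed the test) in each library (points) with the mean and SD (bars) of the 3 libraries of each condition. At the Map2k6 region 40.9 kb downstream the 24h libraries sit between 66.2 and 99.7 and all other libraries between 19.4 and 30.2. At the Map3k1 promoter the 24h libraries sit between 90.1 and 127 and all others between 142 and 201.

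The regions that fell most lay around Map4k3 (GLK), a kinase known from nutrient signalling to mTORC1 and from T cells. Of its 12 distal regions in the comparison, 5 were lower at 24h than at 0h (against 6.57% of all regions) and none higher (against 10.8%). They lie near the same gene, so they are not independent of each other. The region 68.3 kb upstream, between genes at chr17:81194193-81196461, had 234, 169 and 277 fragments at 0h, 136, 103 and 182 at 4h and 61.7, 69.6 and 109 at 24h. It fell by 1.52 at 24h (SE 0.31, adjusted p = 0.00297). The region 86.4 kb upstream (chr17:81212291-81214551) had 66.2, 60.2 and 95.3 at 0h and 16.5, 27.4 and 31.9 at 24h, and fell by 1.57 (SE 0.30, adjusted p = 0.00181). In the intron 17.9 kb downstream (chr17:81108380-81110851) the level fell from 88.1, 70.9 and 105 fragments to 36.5, 37.7 and 34.9, by 1.26 (SE 0.20, adjusted p = 0.000487). At these regions no library at 24h reached the lowest at 0h.

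The regions 79.9 and 56.9 kb upstream of Map4k3 fell by 0.93 (SE 0.30, adjusted p = 0.0476) and 0.92 (SE 0.23, adjusted p = 0.011). The first call was lost without any one of the 6 libraries compared (adjusted p 0.0561 to 0.210) and the second without 0h replicate 1 (0.0655). The promoter region 0.4 kb downstream also went down, from 293 ± 23 to 226 ± 20 fragments (SD, n = 3), without overlap of the libraries. Its difference was smaller, -0.37, with an adjusted p (limma) of 0.109 without and 0.0291 with the replicate number. The number of distal Map4k3 peaks did not separate 0h (19, 19 and 28) from 24h (18, 23 and 22). With UO126 at 24h no Map4k3 region passed the test without the replicate number. With it, the regions 79.9 kb upstream (difference from DMSO 0.99, adjusted p = 0.000254), 57.6 kb upstream (0.46, adjusted p = 0.0133) and 17.9 kb downstream (0.54, adjusted p = 0.0101) were higher than with DMSO. In fragments, the region 17.9 kb downstream had 44.8, 54.1 and 61.2 at ERKi 24h, all above 24h and all below 0h.

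**Figure D4:**
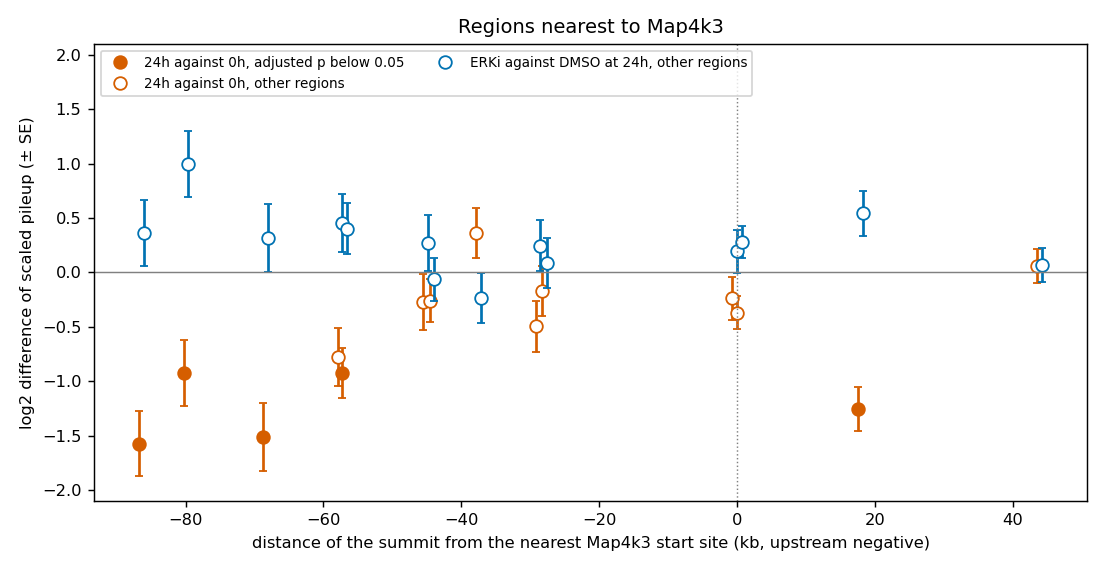
Log2 difference of scaled pileup with its SE (vertical axis) against the distance from the Map4k3 start site in kb for the 14 Map4k3 regions with a peak in all libraries, for 24h against 0h and for ERKi against DMSO at 24h. Filled symbols, an adjusted p below 0.05 without the replicate number, stand at 86.4, 79.9, 68.3 and 56.9 kb upstream and 17.9 kb downstream, and all belong to 24h against 0h.

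Map3k1 (MEKK1), a MAP3K with a part in JNK signalling and epithelial movement, was the only member whose promoter passed the test in any comparison without the replicate number. Its promoter region 0.5 kb downstream of the start (chr13:112597784-112599123) had 201, 163 and 157 fragments at 0h, 151, 147 and 161 at 4h and 101, 90.1 and 127 at 24h. The level fell by 0.72 at 24h (SE 0.16, adjusted p = 0.0057) and all libraries at 24h were below all others. At ERKi 24h it had 167, 145 and 142 fragments, above 24h with DMSO by 0.53 (SE 0.16), with an adjusted p of 0.0627 without and 0.00861 with the replicate number. The region 9.5 kb upstream fell by 0.74 at 24h (SE 0.24, adjusted p = 0.0454), a call lost without 0h replicate 1 or 3 or 24h replicate 1 or 2 (adjusted p 0.105 to 0.198).

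Map3k5 (ASK1), a MAP3K known for its response to oxidative stress, fell at its intronic region 95.6 kb downstream (chr10:19765082-19767314). This region had 61.1, 42.5 and 62.5 fragments at 0h and 26.9, 22.8 and 28.8 at 24h, without overlap. The difference was -1.07 (SE 0.21, adjusted p = 0.00247). The Map3k4 region 18.9 kb upstream (chr17:12529049-12531030) went from 53.9, 41.3 and 53.7 at 0h to 13.9, 31.9 and 34.9 at 24h, a difference of -0.98 (SE 0.29, adjusted p = 0.0253). Without 24h replicate 1, the lowest library, it was -0.56 (adjusted p = 0.125), and the call was also lost without 0h replicate 1 (0.0896) or replicate 3 (0.0804). With UO126 at 24h it had 45.5, 65.7 and 58.9 fragments, all above 24h with DMSO, and the difference was 1.17 (SE 0.29, adjusted p = 0.0205). Without 24h replicate 1 it was 0.75 (adjusted p = 0.0713), and it also lost its call without ERKi 24h replicate 2 (0.0784) or replicate 3 (0.0657).

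Of the 253 member regions, 14 (5.53%) had a peak in all 3 libraries at 24h and in none at 0h, against 4.91% of all 89050 regions. The reverse held for 4 (1.58%, against 2.07%), so both shares were near those of all regions. Mapk10 (JNK3), which had no promoter peak, had 1, 0 and 0 distal peaks at 0h, 0, 0 and 2 at 4h and 7, 5 and 11 at 24h. With UO126 it had 2, 0 and 1 at 4h and 3, 0 and 2 at 24h, all below the libraries at 24h with DMSO. Its intronic regions 63.9 kb and 64.6 kb downstream (chr5:103423333-103423690 and chr5:103422440-103423173) had a peak in all 3 libraries at 24h and in none at 0h. Their unscaled pileups at 24h were low, 22, 15 and 18 fragments at the first and 33, 13 and 39 at the second. Mapk13 (p38δ), also with no promoter peak, had a region 2.6 kb upstream with 45, 27 and 43 fragments at 24h, with no peak at 0h or 4h. Distal peaks of Mapk13 numbered 0, 0 and 2 at 0h, 2, 3 and 2 at 24h and 3, 1 and 4 at ERKi 24h.

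Mapk8 (JNK1) went the other way, with 1, 3 and 3 distal peaks at 0h and 0 in every library at 24h, and Map3k3 (MEKK3) had 0 at 0h and 1, 2 and 1 at 24h. In all, 5 members (Map2k3, Map2k6, Map3k3, Mapk6 and Mapk10) had more distal peaks in every 24h library than in any at 0h, against 14.4% of the 12198 genes with a distal peak, and 1 (Mapk8) had fewer, against 4.74%. At 4h against 0h, 2 members (Map2k6 and Map3k4) had more without overlap, against 4.77%, and 0 fewer, against 1.16%. For ERKi against DMSO at 24h, 1 member (Mapk4) had more, with 6, 6 and 5 against 4, 3 and 4 and against 4.65% of genes, and 2 (Mapk6 and Mapk10) had fewer, against 3.39%. At 4h, 0 members had more or fewer, against 1.36% and 1.07%. Here 28 members had a distal peak.

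The exact permutation test of 3 against 3 libraries cannot go below p = 0.1, two-sided, which each of these differences had. After adjustment over the 12198 genes the smallest adjusted p of a member was 0.523 at 24h against 0h and 1.00 in the other comparisons. With UO126 compared over both times, permuting within each time, the lowest exact p of a member was 0.06 (Map3k3, smallest possible 0.005) and its adjusted p was 1.00.

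**Figure D5:**
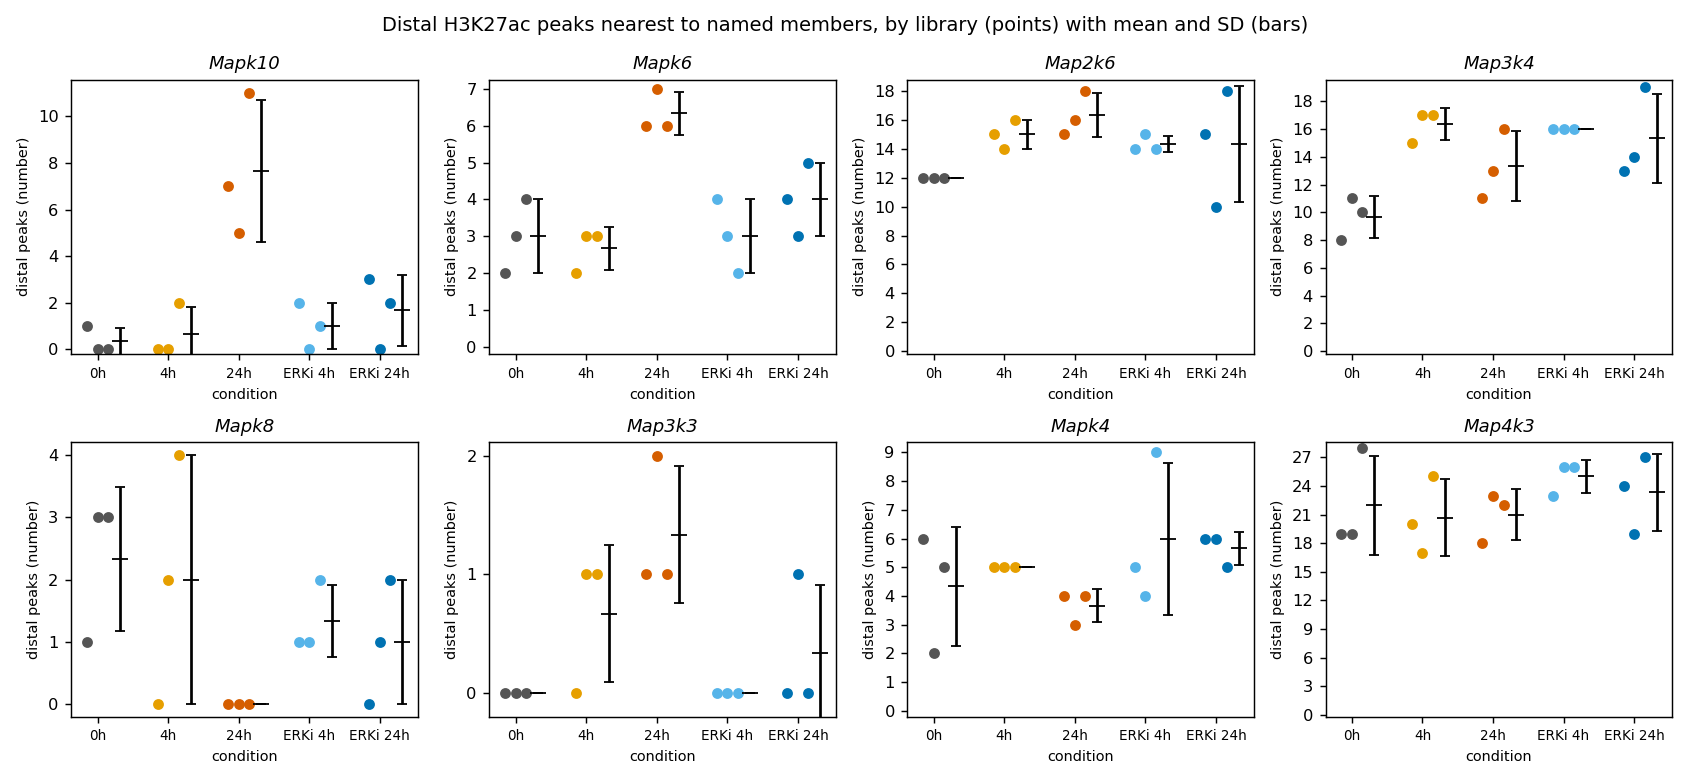
Number of distal peaks (vertical axis) of 8 members in each library (points) with the mean and SD (bars) of the 3 libraries of each condition, bars being cut near 0. Mapk10 has 5 to 11 at 24h and at most 3 in any other library, while Map4k3 has 17 to 28 with all conditions overlapping.

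ERK inhibition was compared with DMSO at each time. At 4h, 0 of the 90 member regions were higher (against 0.00371% of all regions) and 0 lower (against 0.208%) by limma. An unadjusted p below 0.05 was found for 6, again without a share of all regions to read it against. With the replicate number in the fit, 0 were higher (against 0.95%) and 1, the Map2k6 region 52.8 kb downstream, lower (against 2.64%). At 24h, 1 was higher (against 3.1%) and 3 lower (against 4.4%), and with the replicate number 11 were higher (against 12.3%) and 11 lower (against 13.4%). The 4 calls were those described above at Map3k4, Map2k6 and Mapk6. Without 24h replicate 1, ERKi 24h replicate 2 or ERKi 24h replicate 3 the number called was 2. The median difference of member regions was 0.10 at 24h and 0.06 at 4h, and that of all regions 0.00 and 0.01.

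Of the 18 member regions that passed at 24h only with the replicate number, 10 were higher with UO126 and 8 lower. Map3k7 (TAK1), which carries TGF-β signals to p38 and JNK, was among the higher at its promoter region 0.1 kb upstream. This region had 139 ± 16 fragments at ERKi 24h, 101 ± 6.1 at 24h and 115 ± 11 at 0h (SD, n = 3). ERKi 24h differed from 24h by 0.46, with an adjusted p (limma) of 0.0946 without and 0.00869 with the replicate number. A test of whether the effect of UO126 differed between 24h and 4h called 0 member regions by limma without the replicate number. In that fit 4 had an unadjusted p below 0.05, with no share of all regions to read it against. With the replicate number 1 was called (against 3.34% of all regions), the Map2k6 region 40.9 kb downstream.

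By the deposited fold enrichment in place of the pileup, none of the 14 differences at the 11 regions named by rule passed the test, and 3 changed sign. By that measure 1 member region was higher at 24h than at 0h (Map3k5, 40.6 kb downstream, 0.44, against 2.42% of all regions) and 5 were lower (against 2.48%). The lower regions were both Map3k2 promoter regions (0.8 kb upstream, -0.76, and 0.3 kb downstream, -0.52), a distal Map3k2 region further upstream (-0.53) and the Map2k6 regions 46.0 kb (-0.58) and 52.8 kb downstream (-0.60). For ERKi against DMSO at 24h, the Map2k6 region 46.0 kb downstream was higher by 1.10 (1 region, against 0.613%) and 0 were lower (against 0.627%). By scaled pileup that region had 28.7, 35.4 and 38.0 fragments at 24h and 36.7, 54.1 and 70.5 at ERKi 24h. These overlapped, and without the replicate number it was not called by pileup. Its mean moved opposite to those of the 2 Map2k6 regions called lower by pileup. The calls on pileup and on fold enrichment had no region in common within a comparison.

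Other genes of the pathway from a list of 37 (small GTPases, adaptor and scaffold genes, further kinases, MAPK-activated kinases and ETS factors of the Elk family), of which 35 were in the annotation, had 75 regions in the comparison near 31 genes. Of these regions, 5 were higher (against 3.4% of all regions) and 0 lower (0.234%) at 4h, 11 higher (10.8%) and 3 lower (6.57%) at 24h, 0 passed the test with UO126 at 4h, and 1 was higher (3.1%) and 5 lower (4.4%) with UO126 at 24h. With the replicate number in the fit, 12 were higher and 2 lower at 4h (against 11.1% and 4.35%), 15 and 7 at 24h (18.4% and 16.3%), 0 at ERKi 4h (0.95% and 2.64%), and 7 and 13 at ERKi 24h (12.3% and 13.4%). The median difference was 0.02, 0.04, 0.02 and 0.00. Elk3, an ETS factor, was higher at 24h at its promoter by 1.10 (SE 0.17, adjusted p = 0.000346) and at 4 distal regions by 1.42 to 1.52. Ksr1, a scaffold of the ERK module, was lower with UO126 at 24h at 3 distal regions, by 0.88 to 1.14, and each of these calls was lost without 24h replicate 3 (adjusted p 0.0503 to 0.128).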

How the data were processed

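H3K27ac ChIP-seq libraries of 5 conditions with 3 replicates each were used as peak lists. According to the study's methods and the labels, the authors aligned reads with Bowtie to mm9 and ran MACS2 on every library by itself. Whether a control entered peak calling is not given in the sources used here. The deposited lists give the fold enrichment (a linear ratio) at each summit. The deposited lists also give the −log10 p-value and −log10 q-value of each peak, and a whole-number score that the authors' caller made from the q-value and that was not used here. The 10 RNA-seq and 3 input samples were not analysed here.

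The pileup was recovered from fold enrichment and p-value (to within 0.005, except for 25 of 893719 peaks), divided by the library's median ratio over the 26934 regions with a peak in all libraries, and fitted as log2 values of all 15 libraries with limma 3.58.1 (R 4.3.3), with Benjamini-Hochberg adjustment over all 26934 regions. The fit was tested on simulated data. Other steps used Python 3.11.15. Read totals are unknown, so no counting interval is given. Distal peak numbers were compared by exact permutation tests.

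The same replicate number paired libraries: deviations from the condition means correlated above 0.1 in 30 of 30 pairs (mean 0.58, from 0.331 to 0.790). The pairing comes from this check and not from the labels, and the fit with the replicate number as a block was run as an alternative.

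Members and gene lists were chosen with earlier results of these data known. Values were given in full for Mapk3, Map2k1 and Map2k2, for up to 8 called regions per comparison by size of difference, for up to 5 members per comparison by difference in distal peaks without overlap, and for members with no peak or the most distal peaks. Other called regions were named after their values were seen. Results on certain genes are not reported here.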

Additional observations from a re-analysis of the deposited data

Results flagged for a closer look

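At the Map2k6 region 40.9 kb downstream, the effect of UO126 differed between times in the fit with the replicate number. The effect at 24h minus that at 4h was -1.19 (SE 0.24), with an adjusted p (limma) of 0.0053 with and 0.231 without the replicate number. Between libraries of the same number, ERKi minus DMSO was -0.57, -0.16 and -0.35 at 4h and -1.69, -1.22 and -1.72 at 24h, so it was lower in 3 of 3 pairs at both times. These values are by pileup. By the deposited fold enrichment the means were 4.00 at 4h, 3.79 at ERKi 4h, 5.10 at 24h and 4.78 at ERKi 24h. The difference of the UO126 effect between times was not fitted on fold enrichment. The test with the replicate number for this difference was chosen after seeing the data. Conditions of 3 libraries were not examined for single outlying libraries.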

How the results depend on the processing

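The number of member regions called depended on the measure and the fit. With the replicate block, 13 in place of 2 were called at 4h against 0h, 34 in place of 15 at 24h, 1 in place of 0 for ERKi at 4h, 22 in place of 4 for ERKi at 24h and 1 in place of 0 for the difference between times. It ended none of these calls. With fold enrichment the counts were 0, 6 and 1 at 4h, 24h and ERKi 24h, and with −log10 p 1, 8 and 2. Regions in at least 12 libraries (110 member regions) gave 7 at 4h and 24 at 24h, and a −log10 q of at least 10 (55 member regions) gave 0, 4 and 0. At 4h, quantile scaling, merging within 1000 bp and assignment over all gene types gave 1 each, and the last gave 7 at 24h, with 69 member regions entering. Assignment over all gene types changes only the gene a region is named after. The called regions it drops therefore lie nearer to a start site of another gene when transcripts of every type count. Regions named in this report are nearest to the member among protein-coding start sites only. Without single libraries the counts were 0 to 2 at 4h, 9 to 15 at 24h, 0 for ERKi at 4h and 2 to 6 for ERKi at 24h. Members with a promoter peak (mean 33.9 per library) were 26.9 with the window of HOMER and 31.5 with the stricter q, and 33.86 to 33.93 without single libraries. Distal peaks (mean 121.7) were 140.4, 58.9 and, over all gene types, 81.6, and 120.1 to 123.1 without single libraries. With fold enrichment, the Mapk6 region 13.1 kb upstream was -0.42 at 24h and 0.20 for ERKi at 24h, and the Map2k6 region 52.8 kb downstream 0.077 for ERKi at 24h, against the sign by pileup. Of 340 alternative values for the 14 named differences, 293 kept direction and call, 44 lost the call and 3 changed sign. Many of the 340 could not change direction, so the 293 is no measure of robustness. Leaving out a library outside the 2 conditions compared leaves the log2 difference as it was. Assignment over all gene types leaves the fitted values of these regions as they were. The cause of the differences between settings was not tested.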
